A study of Saccharomyces cerevisiae with 32 samples.

Results

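Ribosome biogenesis genes encode the factors that process ribosomal RNA in the nucleolus and assemble it with ribosomal proteins. The group described here has 39 genes of the 6717 in the expression table. They were chosen by name as nucleolar and assembly factors, not by a cut on measured values. Earlier results of these data were known at that time. By role they are 3 box C/D snoRNP proteins, 3 box H/ACA snoRNP proteins, 6 small subunit factors, 3 factors that act on both subunits and 24 large subunit factors. Each was measured by poly-A RNA sequencing of Saccharomyces cerevisiae in 32 libraries.

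The libraries came from a tps1 mutant (strain DBY12383, 16 libraries) and a wild type (WT, strain DBY12000, 16 libraries). TPS1 encodes trehalose-6-phosphate synthase, and its loss is known to impair growth when glucose or fructose is the carbon source, though not on galactose. Both strains were in log phase in YNB (yeast nitrogen base) medium containing 2% galactose when glucose or fructose was added to 2%, and they were sampled at 0, 3, 5, 10, 15, 30, 60 and 120 min. Every strain, sugar and time had 1 library. Each strain's 2 libraries from 0 min served as its galactose baseline. The 3 to 15 min libraries (n = 4 per course) are called early and the 30 to 120 min libraries (n = 3 per course) late. The 4 courses carry no replicate cultures. P-values after sugar rest on the spread between serial samples, or between their matched differences, within a phase. That spread was pooled over the courses and the galactose libraries, and does not measure variation between replicate cultures of a course. It also includes the change with time inside a phase. The construction of the mutant, and whether it is 1 clone, were not given in the sources used here. One baseline label, that of tps1 before fructose, includes the letters trd with no explanation.

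Values are FPKM, fragments scaled by gene length and by library size in a way not stated in the sources used here. Changes are on the log2(FPKM + 1) scale, estimate ± SE. A gene was called when its Benjamini-Hochberg adjusted p, over all 6203 genes tested with limma, was under 0.05 and the difference was at least 2-fold. All 39 members passed the filter of a mean of 1 FPKM. Depth, inferred from the steps between low values, was 3.95 to 9.81 M (mega) fragments per library (median 7.64 M), and the lowest member in any library had about 71 fragments. TPS1 itself lay between 0 and 1.18 FPKM in the 16 tps1 libraries, against 43.2 to 325.7 FPKM in the 16 WT libraries. The sum of all FPKM ranged from 1.189 to 2.58 M in tps1 libraries and from 1.32 to 1.604 M in WT libraries. Bringing libraries to equal sums therefore shifts the median of all genes by -0.46 to -0.87 in the tps1 courses, by -0.14 to -0.28 in the WT courses, and by -0.21 to -0.54 in strain differences after sugar. Changes below are relative to the median gene of the table as deposited, which lay between -0.05 and 0.02 in every comparison. In these bulk RNA samples, fewer cells with a transcript and less transcript per cell cannot be told apart.

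Box C/D snoRNPs guide methylation of ribosomal RNA and box H/ACA snoRNPs guide its pseudouridylation. Small subunit factors gather on the nascent transcript as the small subunit processome, and large subunit factors (helicases, GTPases and scaffold proteins) remodel the precursor of the large subunit on its way to the cytoplasm. In budding yeast many of these genes carry the promoter elements PAC, known to be bound by the repressors Dot6 and Tod6, and RRPE, known to be bound by Stb3.

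The 300 bases before each start codon were read from the RefSeq R64 genome, which has the sacCer3 sequence. PAC was searched as GATGAG and RRPE as AAAAATTT, exact letters on both strands. PAC occurred in 37 of the 39 members (94.9%) and in 19.1% of 6001 promoters. RRPE occurred in 36 members (92.3%) and in 15.1% of promoters, and both occurred in 34 members (87.2%) and in 5.60% of promoters. No member lacked both. UTP4 and SPB1 had RRPE alone, and RRP9, UTP13 and MAK5 had PAC alone. Ribosomal protein genes, which the same signals are known to control through other factors, held PAC in 11.7% and both motifs in 0.73% of 137 promoters. The following 12 stretches, each from 10 bases before its first match to 10 bases after its last on the coding strand, show how the motifs are arranged, with the letters of PAC and RRPE (either strand) in capitals:

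NOP1 (chrIV:427109-427175, forward strand): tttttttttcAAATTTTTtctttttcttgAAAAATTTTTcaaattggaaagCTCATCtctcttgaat
CBF5 (chrXII:505924-506018, forward strand): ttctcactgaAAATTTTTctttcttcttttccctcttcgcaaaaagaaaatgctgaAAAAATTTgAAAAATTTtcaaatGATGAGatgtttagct
NSR1 (chrVII:807828-807871, reverse strand): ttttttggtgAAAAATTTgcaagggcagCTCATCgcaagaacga
UTP4 (chrIV:1116780-1116807, reverse strand): aaaccaaatgAAAAATTTtcagactgac
UTP20 (chrII:227416-227479, forward strand): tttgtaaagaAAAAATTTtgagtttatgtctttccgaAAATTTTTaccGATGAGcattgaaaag
HAS1 (chrXIII:851677-851766, reverse strand): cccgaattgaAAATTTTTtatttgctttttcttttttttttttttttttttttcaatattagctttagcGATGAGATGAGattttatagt
NOP7 (chrVII:695267-695329, forward strand): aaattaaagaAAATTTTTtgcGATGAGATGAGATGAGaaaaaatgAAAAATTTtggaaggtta
DBP9 (chrXII:696955-697040, reverse strand): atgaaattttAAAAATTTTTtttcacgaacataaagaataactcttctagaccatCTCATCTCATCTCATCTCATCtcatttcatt
NOG1 (chrXVI:370825-370885, forward strand): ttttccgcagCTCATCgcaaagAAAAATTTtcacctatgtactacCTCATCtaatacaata
SSF1 (chrVIII:229143-229253, forward strand): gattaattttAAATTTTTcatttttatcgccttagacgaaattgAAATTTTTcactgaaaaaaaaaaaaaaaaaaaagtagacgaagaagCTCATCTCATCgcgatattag
RPF1 (chrVIII:281375-281411, forward strand): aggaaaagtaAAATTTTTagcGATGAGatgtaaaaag
TIF6 (chrXVI:593149-593322, reverse strand): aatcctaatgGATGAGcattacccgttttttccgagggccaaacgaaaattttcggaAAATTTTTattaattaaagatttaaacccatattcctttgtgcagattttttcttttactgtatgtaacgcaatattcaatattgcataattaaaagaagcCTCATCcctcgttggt

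PAC matches often stood in tandem. In 14 members 2 or more copies started 5 bases apart, so that neighbours shared a letter, and DBP9 had 4 copies in a row. The 65 PAC matches lay 51 to 237 bases before the start codon (median 118) and the 60 RRPE matches 26 to 277 bases before it (median 144.5). An RRPE site that matched on both strands (AAAAATTTTT) was counted once per strand, so there were fewer separate sites than matches. In 28 of the 34 members with both motifs the match farthest from the start codon was RRPE. RPF1 and TIF6, whose stretches appear above, had both motifs, and they were among the members with the largest and the smallest early change in WT glucose (1.55 and 0.51). The 34 members with both motifs had a median early change in WT glucose of 1.15, the 3 with PAC alone 1.09 and the 2 with RRPE alone 1.15. A match is a string of letters and does not show that a factor was bound.

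**Figure D1:**
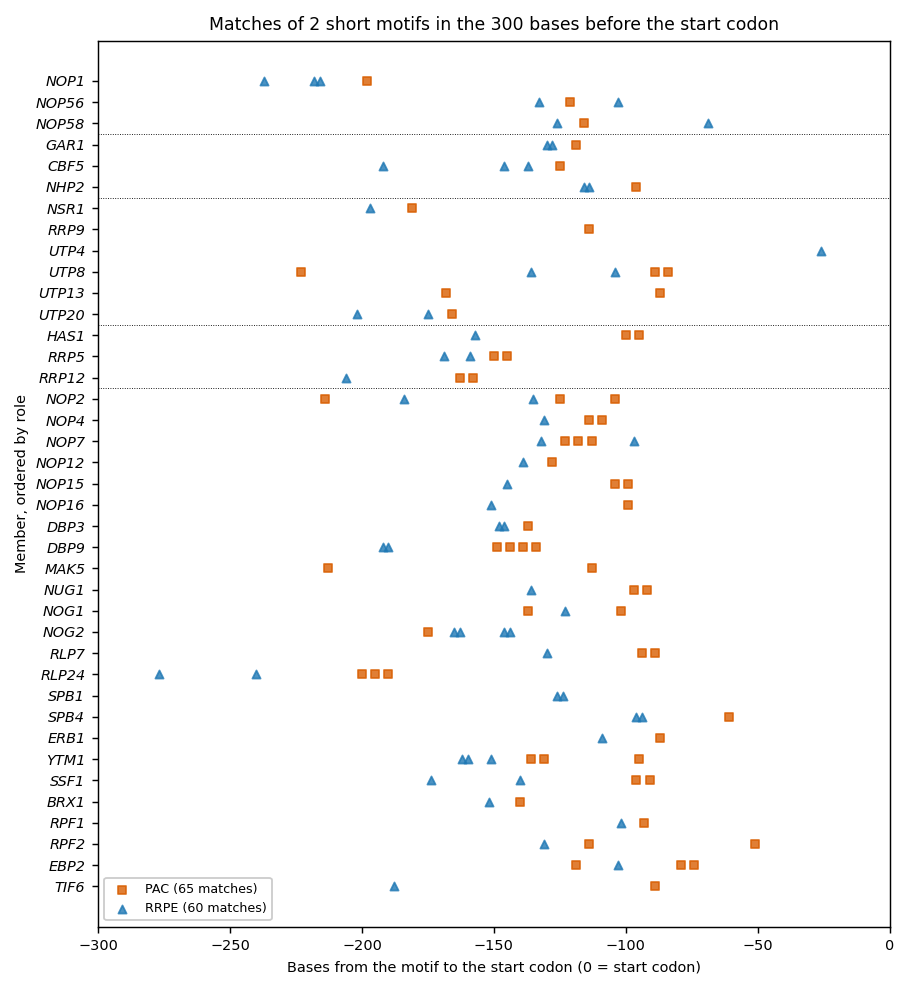
Distance from each PAC (squares) and RRPE (triangles) match to the start codon, in bases, for the 39 members ordered by role, with 0 at the start codon. Most of the 65 PAC and 60 RRPE matches lie between 50 and 200 bases before the start codon (61 and 52 matches). An RRPE site matching on both strands counts once per strand.

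In galactose the strains differed little in these genes. Limma called 0 of 39 members between tps1 and WT, against 0.129% of all genes, and 2 members had an unadjusted p under 0.05. The median member difference, tps1 minus WT, was 0.08, and 35 of 39 estimates were above 0. Levels spanned a wide range per length. NOP1, the fibrillarin methyltransferase of box C/D snoRNPs, was the highest at 477 ± 2.92 FPKM in tps1 and 456 ± 0.26 FPKM in WT (SD, n = 2 each). UTP20, a very long protein of the small subunit processome, was the lowest at 8.67 ± 0.98 FPKM in tps1 and 8.76 ± 0.90 FPKM in WT. TIF6, which keeps the large subunit from joining the small one, was at 379 ± 27.8 FPKM in tps1 and 424 ± 40.2 FPKM in WT.

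After sugar nearly the whole group was high in WT cells at 5 to 10 min and lower again by 120 min. In early WT glucose 26 of 39 members rose, none fell, and of all genes 3.89% were called higher and 3.16% lower. The median member change was 1.13, against 0.0045 for all genes tested. Without the fold minimum 38 of 39 members passed the adjusted p (9.50% of all genes, higher), UTP20 (adjusted p = 0.114, limma) being the exception. The count was 12 without the 10 min libraries, 3 without the WT glucose 0 min library and 15 without the WT fructose 0 min library.

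The WT glucose medians peaked at 10 min and then declined, with 1 library at each time. A direct comparison of late with early WT glucose levels called 0 members (0.613% of all genes in either direction, limma). In WT glucose the median member change from galactose was 0.50, 1.33, 1.56, 1.12, 1.03, 0.66 and 0.26 from 3 to 120 min. The number of members at least 2-fold above the galactose mean was 3, 31, 36, 27, 25, 0 and 0 at the same times. Of all genes 1.72%, 6.51%, 7.25%, 4.95%, 4.22%, 1.56% and 1.50% were at least 2-fold above it at these times. The highest time was 10 min for 32 members, 5 min for 6 and 15 min for 1. By the late phase limma called 0 members (0.451% of all genes were called higher and 1.29% lower, and 26 members had an unadjusted p under 0.05). The late median was 0.66, and 2 members were called without the 120 min libraries.

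NSR1 had the largest early change of the group in WT. It encodes a nucleolin-like protein of the nucleolus needed for small subunit RNA processing (YGR159C, chromosome VII, 806412 to 807656, reverse strand, 1 coding exon). In the tps1 glucose course it was at 170.5, 185, 158, 159, 133, 99, 86.1 and 69.0 FPKM from 0 to 120 min. In the WT glucose course it was at 158, 407, 809, 610.3, 426, 405, 276 and 159.6 FPKM. The WT level at 5 min was more than 5 times the 0 min level of that course, and it was back there by 120 min. Every tps1 glucose library from 5 min on was below the tps1 galactose level. Early WT glucose against galactose gave 1.71 ± 0.32 (adjusted p = 0.00125, limma), and late tps1 glucose gave -1.08 ± 0.34 (adjusted p = 0.0113, limma). The late tps1 call was lost without the 120 min libraries and without the tps1 fructose 0 min library. With fructose, NSR1 was at 185, 192, 217, 213, 188, 187, 155 and 144 FPKM in tps1, and at 173, 254, 603, 540.0, 369.6, 415, 342 and 224 FPKM in WT. Its early WT fructose change was 1.34 ± 0.32 (adjusted p = 0.00959, limma).

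**Figure D2:**
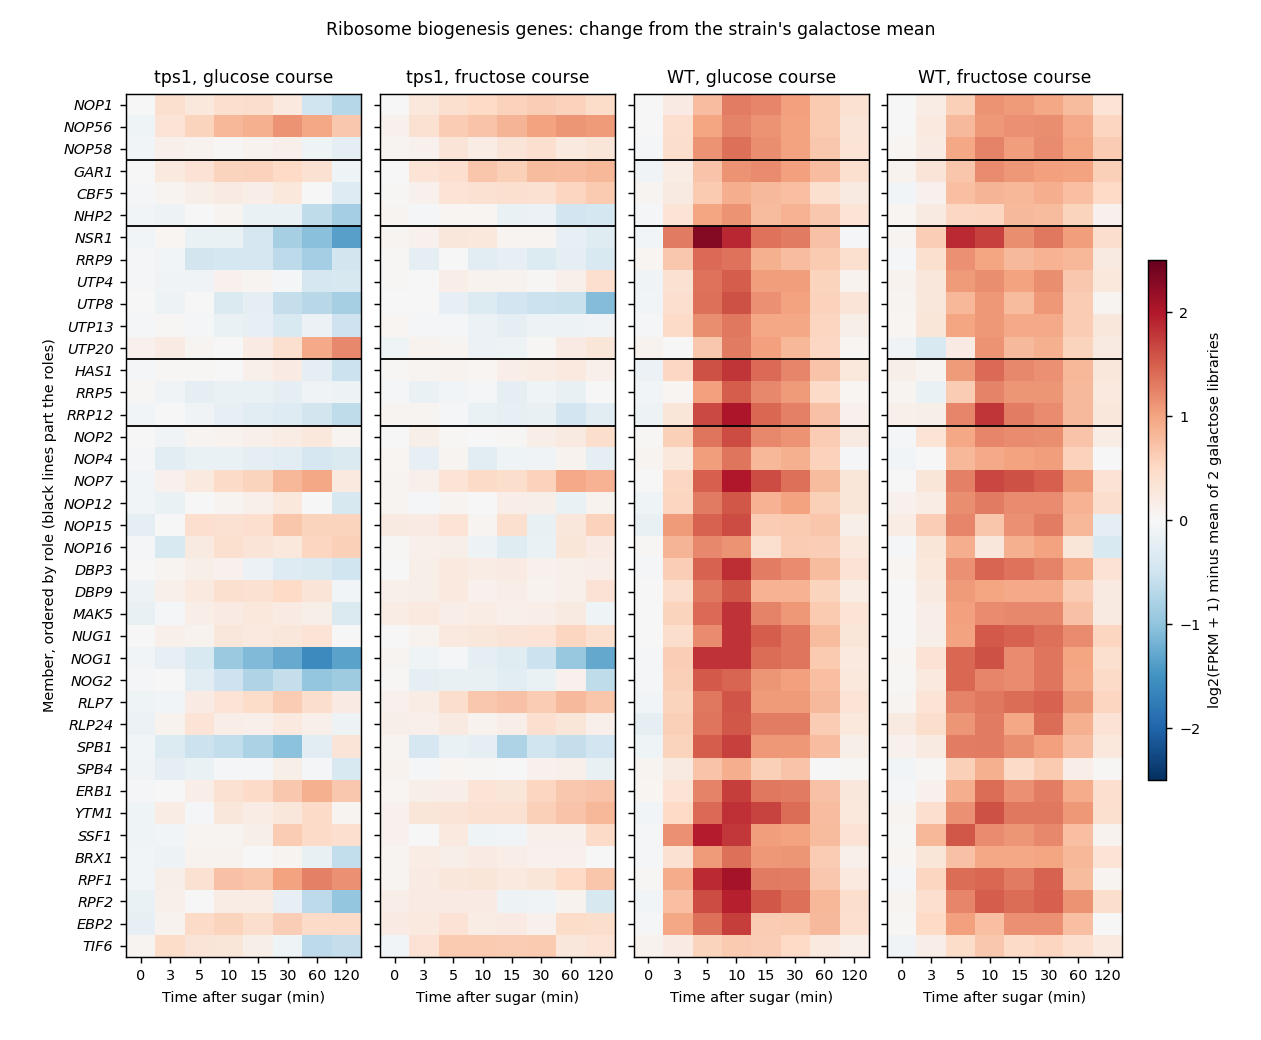
Change of each of the 39 members (rows, by role) at each time (columns, min) from the mean of the 2 galactose libraries of its strain, on the log2(FPKM + 1) scale, in the tps1 glucose, tps1 fructose, WT glucose and WT fructose courses. Both WT panels are red at 5 to 30 min in almost every row, with 36 of 39 members at least 2-fold up at 10 min of glucose, and the tps1 panels mix pale red and blue rows.

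With fructose the WT medians were 0.27, 1.03, 1.18, 1.14, 1.17, 0.81 and 0.29 from 3 to 120 min, with 21 members highest at 10 min and 12 at 30 min. In early WT fructose 12 members rose and none fell (2.42% of all genes were called higher and 2.64% lower), with a median of 0.89. That count was 24 without the 3 min libraries, 2 without the 5 or the 15 min libraries, 1 without the 10 min libraries, and 0 without either WT 0 min library. Without the fold minimum it was 29 (7.61% of all genes, higher). In late WT fructose 3 members rose (1.52% of all genes called higher and 2.45% lower). These were RPF2, which brings the 5S particle to the large subunit (1.02 ± 0.33, adjusted p = 0.0439, limma), NUG1, a nuclear GTPase, at 1.03 ± 0.34 (adjusted p = 0.0496), and RLP7, a protein resembling a ribosomal protein, at 1.04 ± 0.29 (adjusted p = 0.0263). The late count was 17 without the 120 min libraries, 1 without the 5 or the 15 min libraries, and 0 without the 30 or the 60 min libraries or either WT 0 min library.

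The tps1 cells showed no such wave. In early tps1 glucose limma called 0 of 39 members (0.403% of all genes were called higher and 3.27% lower), and 1 had an unadjusted p under 0.05. In early tps1 fructose it called 0 as well (0.645% called higher, 2.37% lower), with 3 at an unadjusted p under 0.05. The median member change stayed between -0.33 and 0.20 at all 7 times of tps1 glucose and between 0.09 and 0.21 at all 7 times of tps1 fructose. At equal FPKM sums these medians change sign, to -0.45 in early glucose, -0.34 in early fructose and -0.70 in late fructose. They then lie near the median gene, which is at -0.49, -0.46 and -0.87.

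Although the median moved little, the members spread apart in tps1 with time. The SD between members of the change from galactose was 0.19, 0.25, 0.36, 0.41, 0.54, 0.63 and 0.61 from 3 to 120 min of tps1 glucose, against 0.29, 0.38, 0.33, 0.30, 0.23, 0.16 and 0.13 in WT glucose. Over all tested genes that SD was 0.87 at 120 min of tps1 glucose and 0.60 at 120 min of WT glucose. In late tps1 glucose 1 member rose (7.48% of all genes called higher) and 2 fell (7.85% called lower), shares of the group near or below those of all genes. In late tps1 fructose 1 member rose and none fell (7.50% and 8.77% of all genes). At equal sums the late tps1 calls were 0 higher and 16 lower in glucose, where 1.13% of all genes were called higher and 35.3% lower. In late fructose they were 0 higher and 9 lower, where 0.338% of all genes were called higher and 41.0% lower.

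The member that rose in late tps1 glucose was RPF1, a Brix family protein of early large subunit particles. It was at 29.8, 35.0, 41.2, 53.0, 51.6, 64.3, 76.9 and 70.3 FPKM in tps1 glucose from 0 to 120 min, against 25.9, 49.4, 95, 111, 63.7, 63.2, 41.2 and 30.4 FPKM in WT glucose. The late tps1 change was 1.13 ± 0.33 (adjusted p = 0.00733, limma). In WT glucose its level peaked at 10 min, and in tps1 glucose the 3 highest libraries were the late ones. In WT fructose it was highest at 30 min, a late library (72.2 FPKM, against 69.9 FPKM at 10 min). NOP56, a core box C/D protein, was the member that rose in late tps1 fructose (1.05 ± 0.25, adjusted p = 0.00138, limma), a call lost without the tps1 glucose 0 min library. It was at 196, 238, 282, 299, 328, 365, 395 and 379.7 FPKM in tps1 fructose, against 178, 211, 315, 379.7, 399, 403, 346 and 259.8 FPKM in WT fructose.

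NOG1, a GTPase of the nucleolus that stays with the large subunit precursor, fell furthest in late tps1 glucose (YPL093W, chromosome XVI, 370978 to 372921, forward strand). Its levels in tps1 glucose were 64.1, 58.4, 51.9, 35.0, 31.0, 27.7, 21.7 and 26.1 FPKM, against 64.8, 102, 236, 235, 177, 171, 105 and 78.8 FPKM in WT glucose. In tps1 fructose they were 71.3, 62.9, 65.0, 57.7, 54.5, 46.4, 34.5 and 27.4 FPKM, against 68.9, 86.0, 181, 204, 152, 170.2, 134 and 88.4 FPKM in WT fructose. The strains started at the same level, and every library after sugar was lower in tps1 than in WT. The late change in tps1 glucose was -1.40 ± 0.36 (adjusted p = 0.00294, limma). In late tps1 fructose the estimate was -0.92 ± 0.36 (adjusted p = 0.0392), short of 2-fold.

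**Figure D3:**
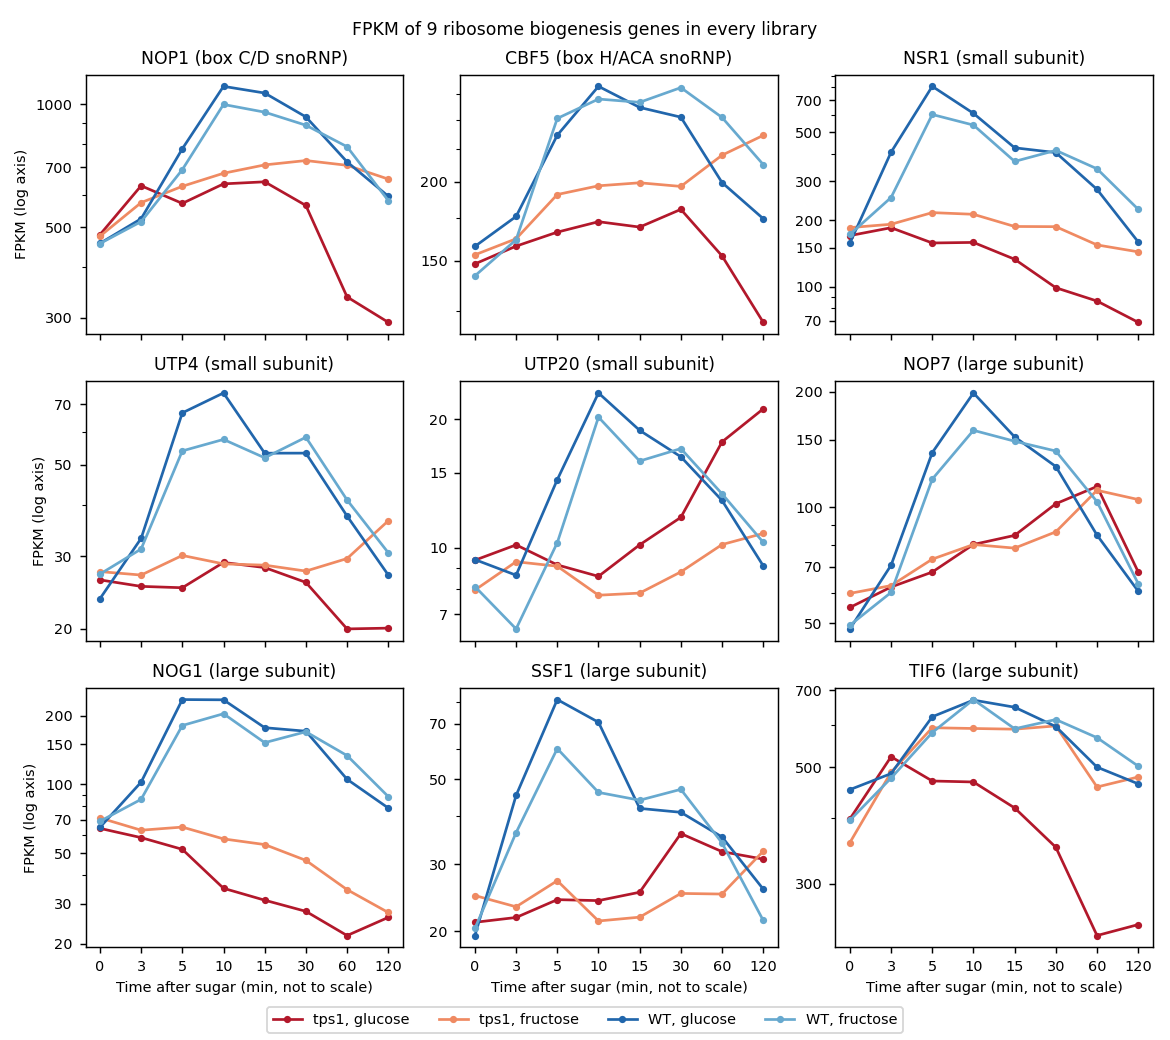
FPKM (log axis) of 9 members in all 32 libraries against time after sugar (min), with tps1 glucose, tps1 fructose, WT glucose and WT fructose as separate lines. The WT lines peak at 5 to 30 min in each panel, while the tps1 lines fall for NOG1, reaching 21.7 FPKM at 60 min of glucose, and climb late for UTP20, reaching 21.2 FPKM at 120 min of glucose.

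Strains were compared directly at matched times. In early glucose all 39 estimates of tps1 minus WT were below 0 (median -0.92), and 15 members were called lower and none higher, against 8.06% of all genes called lower and 5.14% higher. The count was 8 without the 10 min libraries and 34 without the fold minimum (26.8% of all genes, lower). In late glucose 9 were called lower (10.6% of all genes, and 11.0% higher), with a median of -0.61 and 7 estimates above 0. In early fructose 5 were called lower (5.40% of all genes, and 3.63% higher), with a median of -0.63. That count was 12 without the 3 min libraries and 3 without the 5 or the 10 min libraries. In late fructose 4 were called lower (9.80% of all genes, and 9.64% higher), close to the share of all genes, with a median of -0.40. That count was 2 without the 30 min libraries and 9 without the 120 min libraries.

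NOG1 and its relative NOG2, a second large subunit GTPase, were called lower in tps1 in all 4 comparisons. NOG1 differed by -2.04 ± 0.27 in early glucose (adjusted p = 5.79e-05, limma), -2.12 ± 0.31 in late glucose, -1.30 ± 0.27 in early fructose and -1.81 ± 0.31 in late fructose. NOG2 differed by -1.48 ± 0.22, -1.42 ± 0.25, -1.16 ± 0.22 and -1.09 ± 0.25 in the same comparisons. NOG2 holds the snoRNA gene SNR191 (274 bp, same strand) inside its intron, and its 2 exons are the only split coding sequence in the group, so reads of the snoRNA could enter its value. SPB1, a methyltransferase of the large subunit precursor, was called lower in all comparisons except late glucose (-1.72 ± 0.30 in early glucose, adjusted p = 0.000486, limma). DBP3, a DEAD-box helicase, was called lower in both glucose phases (-1.19 ± 0.21 and -1.11 ± 0.24), as was RPF2 (-1.10 ± 0.20 and -1.25 ± 0.23).

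Among the small subunit factors NSR1 differed by -1.77 ± 0.20 in early glucose (adjusted p = 1.81e-05, limma) and -1.63 ± 0.23 in late glucose. RRP9, a specific protein of the U3 snoRNP, differed by -1.38 ± 0.17 and -1.21 ± 0.20, and UTP8, of the complex that first binds the transcript, by -1.17 ± 0.20 and -1.20 ± 0.23. UTP4, a partner of UTP8 in that complex (YDR324C, chromosome IV, 1114433 to 1116763, reverse strand), gave 26.3, 25.3, 25.1, 29.0, 28.1, 25.9, 19.98 and 20.1 FPKM in tps1 glucose, against 23.7, 33.1, 66.8, 74.6, 53.3, 53.3, 37.5 and 27.0 FPKM in WT glucose. At each time from 3 min on the tps1 library was below the WT library, although the 120 min WT level lies within the range of tps1. The early estimate was -0.995 ± 0.20 (adjusted p = 0.00112, limma), just short of 2-fold. In fructose UTP4 was at 27.5, 27.0, 30.1, 28.7, 28.5, 27.6, 29.6 and 36.5 FPKM in tps1 and at 27.1, 31.2, 54.0, 57.6, 52.0, 58.3, 41.1 and 30.6 FPKM in WT.

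UTP20 (YBL004W, chromosome II, 227636 to 235117, forward strand) went the other way late. It was at 9.36, 10.2, 9.13, 8.58, 10.2, 11.8, 17.7 and 21.2 FPKM in tps1 glucose, against 9.40, 8.64, 14.4, 23.1, 18.8, 16.3, 12.9 and 9.08 FPKM in WT glucose. In fructose it was at 7.97, 9.29, 9.07, 7.75, 7.84, 8.79, 10.2 and 10.8 FPKM in tps1 and at 8.13, 6.47, 10.3, 20.2, 16, 17.1, 13.4 and 10.3 FPKM in WT. The tps1 glucose libraries exceeded those of WT at 60 and 120 min and lay below them at 5 to 30 min. Neither strain difference in glucose was called (-0.64 ± 0.30 early, adjusted p = 0.0857, and 0.37 ± 0.34 late, adjusted p = 0.37, limma).

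**Figure D4:**
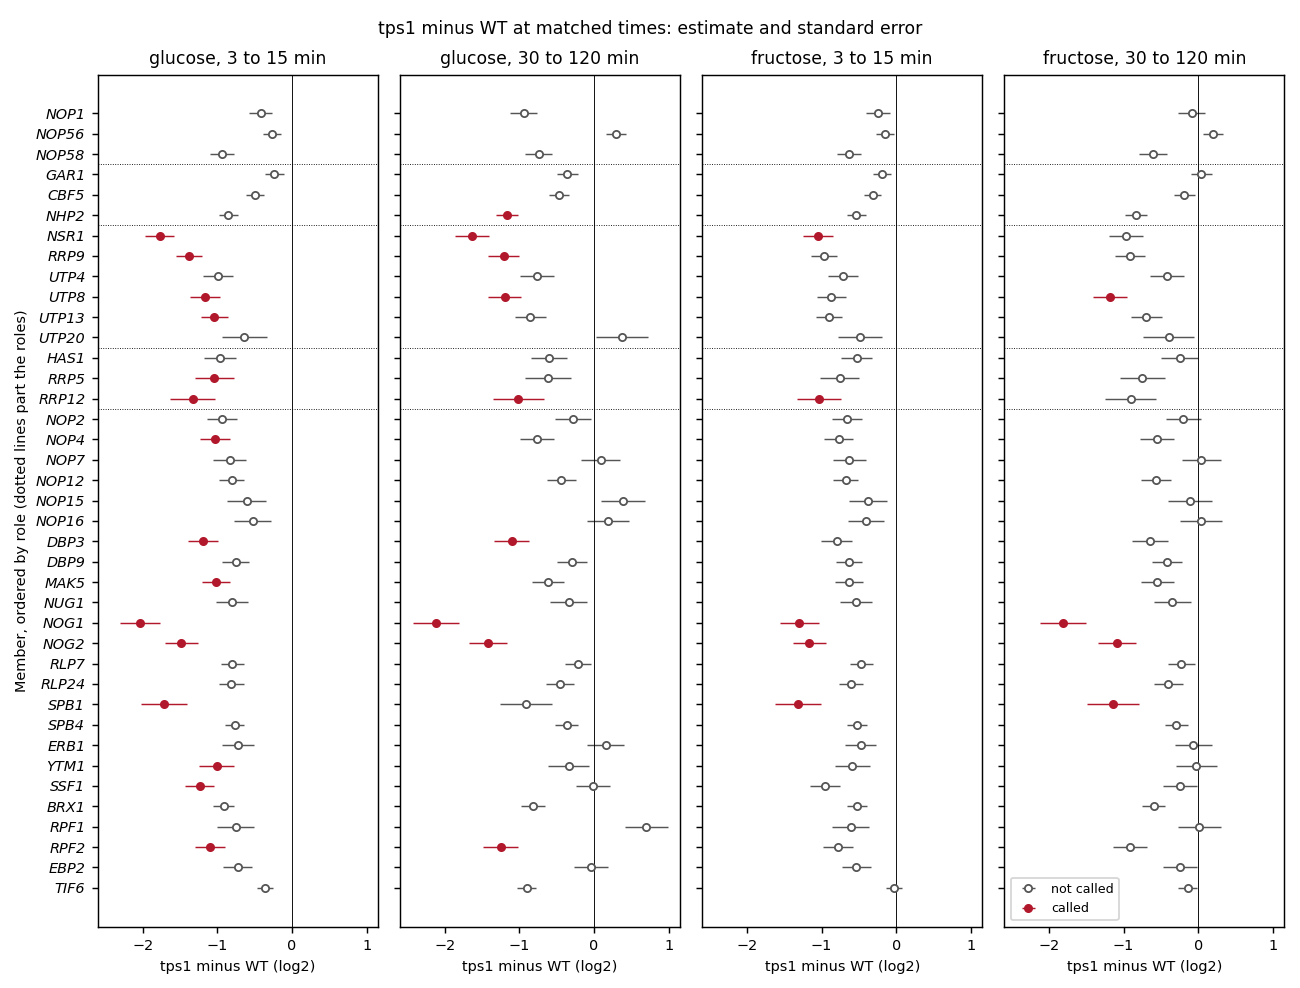
tps1 minus WT (log2, points) with its standard error (bars) for the 39 members in early glucose, late glucose, early fructose and late fructose, filled where called. All 39 points lie left of 0 in early glucose, 7 lie right of 0 in late glucose, and NOG1 is the leftmost point of both glucose panels.

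The large subunit factors NOP7, ERB1 and YTM1, which form a complex, had strain estimates nearer 0 in the late than in the early phase. So did most other large subunit members in glucose, such as EBP2 (-0.73 early, -0.05 late) and NOP2 (-0.94 early, -0.28 late). NOG1, RPF2 and TIF6 did not. NOP7 (YGR103W, chromosome VII, 695417 to 697234, forward strand) was at 54.9, 62.0, 67.9, 80.1, 84.5, 102, 113 and 67.9 FPKM in tps1 glucose, against 48.3, 70.7, 139, 198, 152, 128, 84.7 and 60.5 FPKM in WT glucose. In fructose it was at 59.7, 62.6, 73.3, 80.0, 78.3, 86.3, 111 and 105 FPKM in tps1 and at 49.4, 60.1, 118, 159, 149, 140.1, 103 and 63.3 FPKM in WT. The level of NOP7 in tps1 was highest at 60 min with either sugar, and in WT at 10 min. Tps1 minus WT was -0.84 ± 0.22 early (adjusted p = 0.00642) and 0.09 ± 0.26 late (adjusted p = 0.795, limma) in glucose. For ERB1 the same estimates were -0.72 ± 0.21 and 0.16 ± 0.24, and for YTM1 -1.007 ± 0.24 and -0.34 ± 0.27. Whether early and late strain differences differed from each other was not tested.

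SSF1, a Brix family protein (YHR066W, chromosome VIII, 229335 to 230696, forward strand), peaked at 5 min in WT. It was at 21.1, 21.7, 24.2, 24.1, 25.3, 36.1, 32.3 and 30.9 FPKM in tps1 glucose, against 19.5, 45.4, 81.0, 70.7, 42.0, 41.0, 35.3 and 25.8 FPKM in WT glucose. In fructose it was at 24.8, 23.2, 27.1, 21.3, 21.8, 25.1, 25 and 32.4 FPKM in tps1 and at 20.3, 36.3, 60.3, 46.2, 44.1, 47.1, 34.1 and 21.3 FPKM in WT. The early difference in glucose was -1.24 ± 0.20 (adjusted p = 0.000244, limma) and the late one -0.02 ± 0.23. SSF1 shares 4.04% of its 50-base words with other places in the genome (its paralog is SSF2), so a few of its reads could be split. The other 38 members share none.

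The snoRNP proteins had the smallest median strain differences in early glucose, -0.42 for box C/D and -0.50 for box H/ACA. None of the 6 was called there, where their estimates ran from -0.94 to -0.24 and 8.06% of all genes were called lower. NHP2, a core box H/ACA protein, was the only one called in late glucose (-1.17 ± 0.14, adjusted p = 2.06e-05, limma), against 10.6% of all genes. With 6 genes, both counts are near those shares. NOP1 (YDL014W, chromosome IV, 427364 to 428347, forward strand) was at 479, 631, 572, 638, 645, 565, 338 and 293 FPKM in tps1 glucose, against 456, 524, 777, 1105, 1064, 930.1, 722 and 595 FPKM in WT glucose. In fructose it was at 475, 574, 629, 677, 709.8, 727, 708 and 655 FPKM in tps1 and at 456, 516, 691, 998, 955, 888, 786 and 581 FPKM in WT. With glucose the tps1 level dropped below its galactose level at 60 and 120 min, and with fructose it stayed above it.

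CBF5, the pseudouridine synthase of box H/ACA snoRNPs (YLR175W, chromosome XII, 506134 to 507585, forward strand), was at 148, 158, 167, 173, 169.6, 181, 153 and 120.0 FPKM in tps1 glucose, against 158, 176, 237, 283, 262, 253, 199 and 175 FPKM in WT glucose. In fructose it was at 153, 163, 191, 197, 199, 197, 220.2 and 237 FPKM in tps1 and at 142, 162, 252, 270.0, 267, 281, 253 and 213 FPKM in WT. Its WT change was below 2-fold in both sugars (0.65 ± 0.19 in early glucose, adjusted p = 0.0231, limma). At 120 min of fructose tps1 was above WT.

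TIF6 (YPR016C, chromosome XVI, 592332 to 593069, reverse strand) had the smallest early WT glucose change of the group, 0.51 ± 0.17 (adjusted p = 0.0358, limma). It was at 398, 523, 470.3, 468, 418, 352, 239 and 251 FPKM in tps1 glucose, against 453, 486, 623, 670.5, 649.9, 597, 499.8 and 464 FPKM in WT glucose. In fructose it was at 359, 489, 594, 592, 590.2, 599, 458 and 479 FPKM in tps1 and at 396, 476, 582, 672, 591, 616, 569 and 502 FPKM in WT. In early fructose tps1 minus WT was -0.03 ± 0.11 (adjusted p = 0.85, limma), and in late glucose the estimate was -0.90 ± 0.13 (adjusted p = 5.23e-05, limma), short of 2-fold.

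The response to sugar, that is the phase level minus the galactose level, was also compared between strains. In early glucose 15 members had a smaller response in tps1 (5.58% of all genes, and 2.22% larger), and in late glucose 9 (7.98% and 8.42%). In early fructose limma called 0 (1.43% and 0.548%, with 25 members at an unadjusted p under 0.05), and in late fructose 5 (7.32% and 7.64%). The medians were -1.06, -0.69, -0.80 and -0.56. The early glucose, late glucose and late fructose counts fell when any 1 of the 4 galactose libraries was left out. The fit uses matched differences, so leaving out either strain's library of a course removes the same difference. Both give the same fit, with 1 galactose difference left. Leaving out times moved the counts too. The early glucose count was 25 without 3 min, 1 without 5 or 10 min, 3 without 15 min and 5 without 60 min, and the late glucose count was 5 without 60 min. The early fructose count was 17 without 3 min and 1 without 120 min. The late fructose count was 3 without 5, 10 or 15 min, 1 without 30 min and 0 without 60 min.

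The sugars were compared within each strain at matched times. Limma called 0 of 39 members between glucose and fructose in early WT (0.129% of all genes in either direction), late WT (0.177%), early tps1 (0.193%) or late tps1 (3.32%). The members at an unadjusted p under 0.05 were 22, 8, 6 and 22 in these comparisons. In early WT 38 of 39 estimates were higher in glucose, with a median difference of 0.24, and HAS1, a helicase of both subunits, passed the adjusted p short of 2-fold, as did 0.838% of all genes in that direction (0.39 ± 0.09, adjusted p = 0.0463, limma). In late tps1 20 members passed the adjusted p without the fold minimum, 2 higher and 18 lower in glucose (16.5% and 21.8% of all genes). NSR1 (-0.93 ± 0.11), TIF6 (-0.88 ± 0.09) and NOP1 (-0.86 ± 0.12) had the lowest estimates, and UTP20 (0.68 ± 0.11) and RPF1 (0.64 ± 0.13) were the 2 higher in glucose. Late and early levels of a course did not pass the rule for any member in any of the 4 courses (limma), with 16, 1, 10 and 1 members at an unadjusted p under 0.05 in WT glucose, WT fructose, tps1 glucose and tps1 fructose. Of all genes 0.613%, 0.403%, 3.43% and 1.06% were called there. The count was 3 without the 3 min and 2 without the 30 min libraries in WT glucose, and 1 without the 30 min libraries in tps1 glucose. Without the 30 min libraries 1 member was also called between sugars in late tps1.

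Small and large subunit factors were set side by side. In early WT glucose 4 of 6 small subunit factors and 19 of 24 large subunit factors rose (3.89% of all genes), with medians of 1.08 and 1.19. Of the snoRNP proteins 1 of 6 rose (NOP58, 1.02 ± 0.23, adjusted p = 0.0039, limma), and of the factors of both subunits 2 of 3. In early WT fructose the counts were 1 of 6 and 10 of 24 (2.42% of all genes), with medians of 0.83 and 0.96. In tps1 the role medians lay on either side of 0. The median of the small subunit factors was -0.13 in early and -0.50 in late tps1 glucose, and that of the large subunit factors 0.14 and 0.12. Tps1 minus WT in late glucose had a median of -1.03 for the small and -0.35 for the large subunit factors, with 3 of 6 and 4 of 24 called lower (10.6% of all genes). In late fructose these medians were -0.81 and -0.32, with 1 of 6 and 3 of 24 called lower, near the 9.80% of all genes. With 6 genes on the small side, and members that are not replicates, the difference between roles was not tested.

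**Figure D5:**
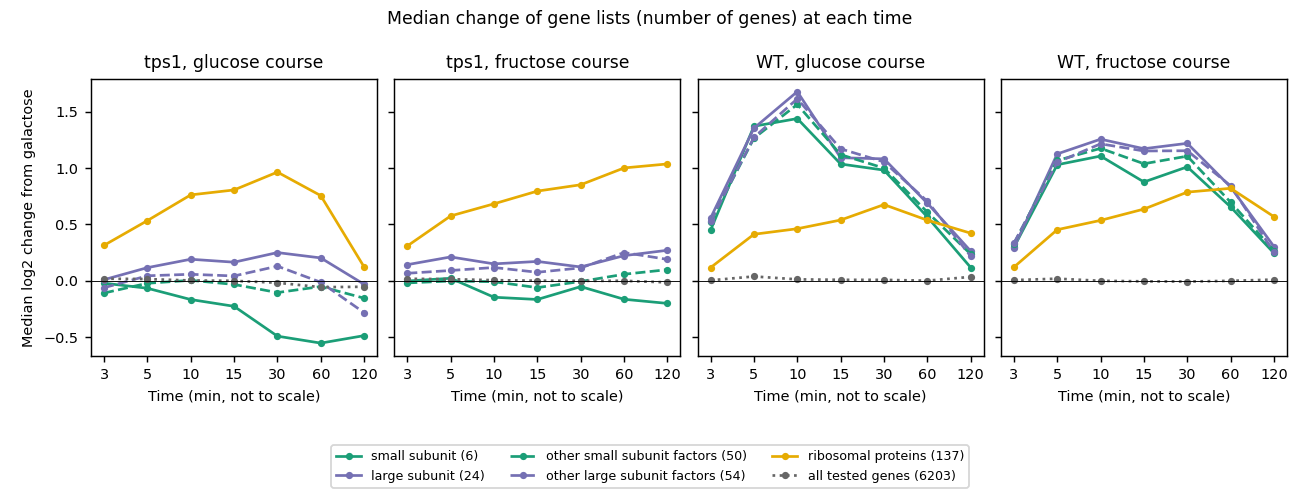
Median log2 change from galactose at each time (min) for small and large subunit members (solid lines), other small and large subunit factors (dashed), ribosomal proteins and all tested genes (dotted), with the number of genes in the legend. The assembly factor lines peak at 10 min of WT glucose, at 1.44 for the small and 1.68 for the large subunit members. In tps1 glucose the small subunit members reach -0.55 at 60 min, the large subunit members 0.25 and the ribosomal proteins 0.96 at 30 min.

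Assembly factors outside the group were summarised in the same way. A list of 50 other small subunit factors had a median of -0.04 in late tps1 glucose and a list of 54 other large subunit factors one of -0.01. For tps1 minus WT in late glucose their medians were -0.54 and -0.50. In early WT glucose 36 of 50 and 37 of 54 rose, with medians of 1.10 and 1.15, close to those of the members. In tps1 minus WT of early glucose 24 of 50 and 28 of 54 were called lower (8.06% of all genes). These lists held the same motifs, both PAC and RRPE standing in 78% and 63% of their promoters.

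Ribosomal protein genes followed another course. Their median change in WT glucose was 0.12, 0.41, 0.46, 0.54, 0.68, 0.54 and 0.42 from 3 to 120 min, later and smaller than that of the assembly factors, and 0 of 137 were called in the early phase (limma, 46 with an unadjusted p under 0.05 and 5 past the adjusted p without the fold minimum). In tps1 glucose it was 0.31, 0.53, 0.76, 0.81, 0.96, 0.76 and 0.12. In late tps1 fructose 62 of 137 rose (7.50% of all genes), with a median of 0.98, against a median of 0.19 for the 39 members. At equal FPKM sums the median gene of that comparison lies at -0.87, so a rise as deposited is one relative to other genes. Many of these genes are duplicated, and the split of reads between copies is uncertain.

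Of 8 RNA polymerase I genes (7 subunits and the initiation factor RRN3) 5 rose in early WT glucose (3.89% of all genes were called higher). These 5 were RPA135, RPA49, RPA43, RPA34 and RPA12, at 1.04 to 1.28. Limma called 0 of the 8 in the early or late phases of either tps1 course (1 to 3 genes had an unadjusted p under 0.05 in each). Of all genes 0.403% to 7.50% were called higher in those phases and 2.37% to 8.77% lower, so 0 of 8 is near those shares. RPA34 was lower in tps1 in early glucose (-1.25 ± 0.17, adjusted p = 8.58e-05, limma) and in late glucose (-1.48 ± 0.20). Among 10 regulators, TOD6, the PAC-binding repressor, rose with the members in early WT glucose (2.31 ± 0.45, adjusted p = 0.00171, limma) and fructose (1.96 ± 0.45), and IFH1, a coactivator of ribosomal protein genes, rose in glucose (1.13 ± 0.35, adjusted p = 0.0271). SFP1, an activator of assembly factor genes, fell in all 4 tps1 phases, with estimates of -1.011 (early glucose), -1.21 (late glucose), -1.09 (early fructose) and -1.64 (late fructose). SCH9, the kinase that signals growth to these regulators, fell in the same 4 phases, with estimates of -1.15, -1.34, -1.02 and -1.60. STB3, the RRPE-binding protein, fell in late tps1 glucose (-1.18 ± 0.28) and late fructose (-1.41 ± 0.28). FHL1, a ribosomal protein gene activator, fell in late tps1 fructose (-1.06 ± 0.16), and HMO1, a high-mobility group protein of rDNA, rose in late tps1 glucose (1.002 ± 0.20). These are transcript levels and not the activity or location of the proteins.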

How the data were processed

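The labels assign all 32 libraries to strain, sugar and time, and all 32 columns matched the labels. Per the labels' protocols, hot acidic phenol extraction preceded stranded poly-A library preparation. Per the submitters' processing notes, CASAVA 1.4, TopHat2, the sacCer3 build and Cuffnorm were used. The deposited values are FPKM, computed by the authors. How libraries were scaled, and whether counting used the strand, were details not given in the sources used here. One entry lacking a gene ID was left out, and 6025 of 6717 IDs matched the RefSeq R64 annotation.

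From these FPKM values log2(FPKM + 1) was taken, and the 6203 genes averaging 1 FPKM or more went into limma 3.58.1 in R 4.3.3 (trended prior variance, Benjamini-Hochberg adjustment over all tested genes). Galactose libraries were compared 2 against 2. Courses were compared with galactose in a cell-means fit of 32 libraries, strains in 16 tps1 minus WT differences, and sugars in 16 glucose minus fructose differences at matched times. Serial samples were treated as independent. The code was tested on simulated data.

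Depth was estimated from low FPKM values times gene length less 180 bp, of which 88.2% of 1343 lay within 0.1 of a whole fragment; fragment counts were not analysed here. Sequences came from the RefSeq genome, with no table of promoters or proteins. All members are described by role, 9 with values in every library, and in a course comparison the members with the highest and lowest estimates; TPS1 checks the strain labels. Other members given single estimates, and the RNA polymerase I genes and regulators named, were picked after their values were seen. The members and gene lists were chosen with earlier results of these data known. Alternatives were pseudocounts of 0.1 and 5, no filter, other scalings, no trend, no matching by time, each galactose library or later time left out, and no fold minimum, the last added after seeing the data. Tables used Python 3.11.15, numpy 2.4.6, pandas 2.3.3 and the R package data.table (version 1.17.8), and figures matplotlib 3.10.9.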

Additional observations from a re-analysis of the deposited data

Results flagged for a closer look

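The response to sugar differed between the strains by a test of the difference itself. In early glucose 15 members had a smaller change from galactose in tps1 than in WT (5.58% of all genes), in late glucose 9 members (7.98%), and in late fructose 5 members (7.32%) (limma, the rule for calls used throughout). In early fructose limma called 0 members, with 25 at an unadjusted p under 0.05. The early glucose, late glucose and late fructose counts fell when any 1 of the 4 galactose libraries was left out. Such a fit keeps 1 matched galactose difference, so these counts depend on each galactose library. No member had a larger change by the same rule. The largest differences were those of NOG1, at -2.05 ± 0.46 in early glucose (adjusted p = 0.0192), -2.14 ± 0.49 in late glucose (adjusted p = 0.00675) and -1.83 ± 0.49 in late fructose (adjusted p = 0.0182).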

How the results depend on the processing

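For the 9 members with full values, 27 results were called. None turned its direction in the 17 settings run for all of them, or in the fit without matching by time, which was run for 16. Over all settings 397 values kept the call and 78 lost it, 14 of 27 without either WT 0 min library. The counts of called members that moved by over 1.5 times, or to or from 0, were as follows. With a pseudocount of 5, late WT fructose gave 0. At equal FPKM sums the counts were 1 in early and 0 in late WT fructose, 2 in early and 16 in late tps1 glucose, and 9 in late tps1 fructose. Late minus early then gave 2 in tps1 glucose (0.854% of all genes called higher and 4.20% lower) and 1 in tps1 fructose (0.0322% and 5.11%). Tps1 minus WT gave 31 in early and 20 in late glucose and 10 in early and 17 in late fructose. Of all genes 14.5%, 27.2%, 8.46% and 24.9% were then called lower there, and 2.67%, 4.40%, 2.46% and 3.16% higher. The response gave 30, 24, 1 and 23 in the same order. Its shares of all genes were 12.7%, 26.6%, 2.53% and 24.9% lower, and 0.789%, 3.29%, 0.371% and 2.11% higher. Without matching by time the response gave 1 in early and 3 in late fructose. Without the fold minimum the counts were 29 in early and 8 in late WT fructose, 1 and 10 in early and late tps1 glucose, and 1 and 7 in early and late tps1 fructose. They were 5 for late minus early in tps1 glucose. For tps1 minus WT they were 34 (early glucose), 21 (late glucose), 27 (early fructose) and 16 (late fructose). In early glucose 26.8% of all genes were also lower by this rule. For the other strain comparisons that share is not given here, so their counts do not show a loss particular to the group. Glucose minus fructose gave 1 in early WT (0.838% of all genes, higher), and 1 and 20 in early and late tps1 (late: 16.5% of all genes higher and 21.8% lower). Smaller moves without the fold minimum were from 26 to 38 in early WT glucose and, for the response, to 20 in early glucose, 11 in late glucose and 7 in late fructose.

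Leaving out each galactose library or later time in turn gave 3 to 32 in early and 0 to 2 in late WT glucose, and 0 to 24 in early and 0 to 17 in late WT fructose. It gave 2 to 4 in late tps1 glucose, 0 to 2 in late tps1 fructose, 0 to 3 for late minus early in WT glucose and 0 to 1 in tps1 glucose. Tps1 minus WT ranged over 8 to 22 in early and 8 to 11 in late glucose, and 3 to 12 in early and 2 to 9 in late fructose. The response ranged over 0 to 25, 2 to 12, 0 to 17 and 0 to 6, and glucose minus fructose in late tps1 over 0 to 1. In every other comparison of members the count was 0 throughout. The cause of these moves was not tested. With 2 galactose libraries a strain and 1 library a time, calls near the 2-fold line rest on few samples. Strains and sugars were paired by time, and no block by replicate number was fitted because the labels give no such numbers.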
